A study of Mus musculus with 6 samples.

Results

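The genes described here are the histone genes of the mouse as the deposited count table names them. They are the 68 rows whose symbol begins with Hist1h, Hist2h, Hist3h or Hist4h, named after the gene clusters and called clustered here, and 8 variant genes that stand alone (H2afx, H2afz, H2afy, H2afv, H3f3a, H3f3b, H1f0 and H1fx). Among the clustered rows Hist3h2bb-ps is annotated as a processed pseudogene and is counted with the genes throughout. Together they make 76 of the 24421 genes in the table. RNA was sequenced from Neuro2a, a mouse neuroblastoma line labelled wild type, grown in collagen-coated 6-well plates. All cells had received adenovirus 48 h before harvest, carrying a control short hairpin RNA (ADV-shCtrl, 3 libraries) or a hairpin against Fam172a (ADV-shFam172a, 3 libraries), and no uninfected cells were analysed here. The line is 1 tumour-derived line kept in culture, and the labels do not say whether the libraries of a group came from separate infections, so p-values measure only the spread between these libraries, which may be technical.

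Histones package DNA. H2A, H2B, H3 and H4 form the nucleosome core and H1, the linker histone, binds where DNA enters and leaves it. Most clustered genes are replication-dependent: their mRNAs are made in S phase, usually lack introns, and end in a conserved stem-loop in place of a poly(A) tail. The stem-loop binding protein SLBP and the U7 ribonucleoprotein direct this end. The variant genes are mostly transcribed throughout the cell cycle, often have introns and make polyadenylated mRNA, and their products replace the replication-dependent histones at particular places: H3.3 at active chromatin, H2A.Z at promoters, macroH2A at silent regions. The series title names histone lactylation, a mark placed on these proteins. Compared here are the transcripts of the proteins themselves, not the mark.

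The stem-loop separates these genes by sequence, so it is shown first. The histone 3′ stem-loop was searched as a pattern of 16 bases that allows alternative bases at several positions. The search covered the sense strand of GENCODE M21 transcripts (GRCm38, the build of the deposited counts, per the submitters' processing notes). The pattern was found in an annotated transcript of 47 of the 76 genes (61.8%), against 63 of 21876 protein-coding genes outside them (0.288%). Of the 68 clustered genes 46 held it, and among the 8 variant genes H2afx alone did. For 15 clustered genes the transcript model ends within 16 bases of the stop codon, so it cannot hold the pattern. The windows below are the stem-loops, in capitals with their flanks in lower case, of the 6 genes with a match that were detected, followed by 2 genes with 0 counts in every library, whose models end 3 bases after the loop.
Hist1h1c (chr13:23739507-23739532, plus strand): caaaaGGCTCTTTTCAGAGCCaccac
Hist1h1e (chr13:23621777-23621802, minus strand): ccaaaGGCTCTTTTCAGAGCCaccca
Hist3h2a (chr11:58955167-58955192, plus strand): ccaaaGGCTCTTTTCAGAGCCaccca
Hist3h2ba (chr11:58949344-58949369, plus strand): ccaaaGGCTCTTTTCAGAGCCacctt
Hist1h4i (chr13:22040961-22040986, minus strand): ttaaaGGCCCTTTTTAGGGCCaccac
H2afx (chr9:44335235-44335260, plus strand): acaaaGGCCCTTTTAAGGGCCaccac
Hist1h2ap (chr13:21833026-21833049, minus strand): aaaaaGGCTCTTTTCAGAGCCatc
Hist1h4m (chr13:21812124-21812147, plus strand): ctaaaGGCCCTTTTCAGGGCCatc

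The table was almost empty for the clustered genes. A gene counted as detected when its raw counts summed to at least 60 over the 6 libraries, a rule that came with the gene set. By it 17 of 76 histone genes (22.4%) were detected, against 12769 of all 24421 genes (52.3%). All 8 variant genes were detected, but only 9 of 68 clustered genes (13.2%). In the Hist1 cluster on chromosome 13 there were 6 detected of 54, in Hist2 on chromosome 3 there was 1 of 10, in Hist3 on chromosome 11 there were 2 of 3, and the Hist4 gene on chromosome 6, Hist4h4, had 17 counts in all.

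By histone class, the detected clustered genes were 3 of 6 for H1 (Hist1h1c, Hist1h1b, Hist1h1e), 1 of 18 for H2A (Hist3h2a), 3 of 19 for H2B (Hist2h2be, Hist1h2bc, Hist3h2ba), 0 of 12 for H3 and 2 of 13 for H4 (Hist1h4i, Hist1h4k). The 8 variant genes held 99.0% of the 480929 counts on histone genes and the 68 clustered genes 0.971%. The 59 genes that were not detected had 603 counts together, and 11 of them had 0. A count of 0 over the summed gene counts allows up to 0.0291 CPM (3 counts), by counting error alone. Just inside the minimum were Hist1h1e with 64, Hist1h4k with 68 and Hist1h1b with 146 counts, and just outside it Hist1h1d with 59, Hist2h2bb with 48 and Hist1h4j with 40.

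**Figure D1:**
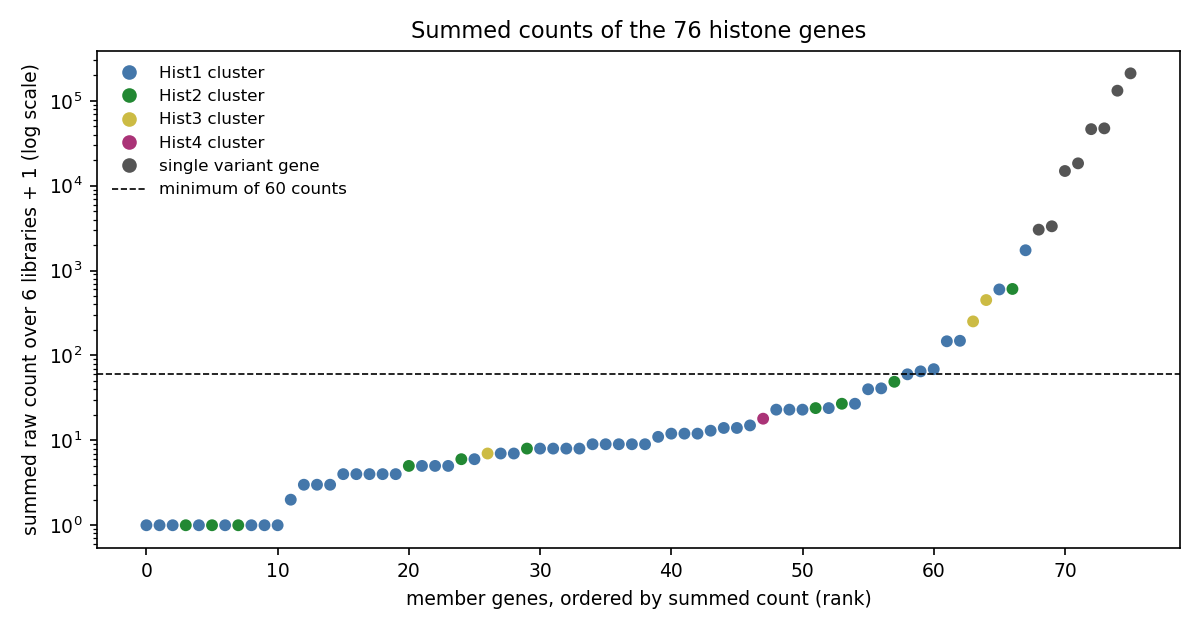
Summed raw count of each of the 76 histone genes over the 6 libraries, plus 1, on a log axis, ordered by rank and coloured by cluster, with the minimum of 60 counts dashed. The 8 variant genes take the highest ranks, and 59 clustered genes lie under the line.

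The detected clustered genes with a stem-loop had transcript models that run on beyond it. The model of Hist3h2ba continued for 169 bases, Hist1h4i for 330, Hist1h1c for 840, Hist1h1e for 1153 and Hist3h2a for 1643, and that of the variant gene H2afx for 822. Among the clustered genes that were not detected, 40 had a loop in the longest coding model, with a median of 54 bases after it (range 3 to 4884). In 18 of these 40 the model also ran on for at least 100 bases, so a long model did not go with detection in every gene: Hist1h1d, with the longest stretch, had 59 counts. Hist2h2be and Hist1h2bc, the clustered H2B genes with the most counts, have models of 2620 and 1156 bases without a match to the pattern, and that of Hist1h2bc is spliced from 2 exons. The labels do not say whether libraries were made from polyadenylated RNA or by removal of ribosomal RNA, and the part this plays in the low counts was not tested.

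**Figure D2:**
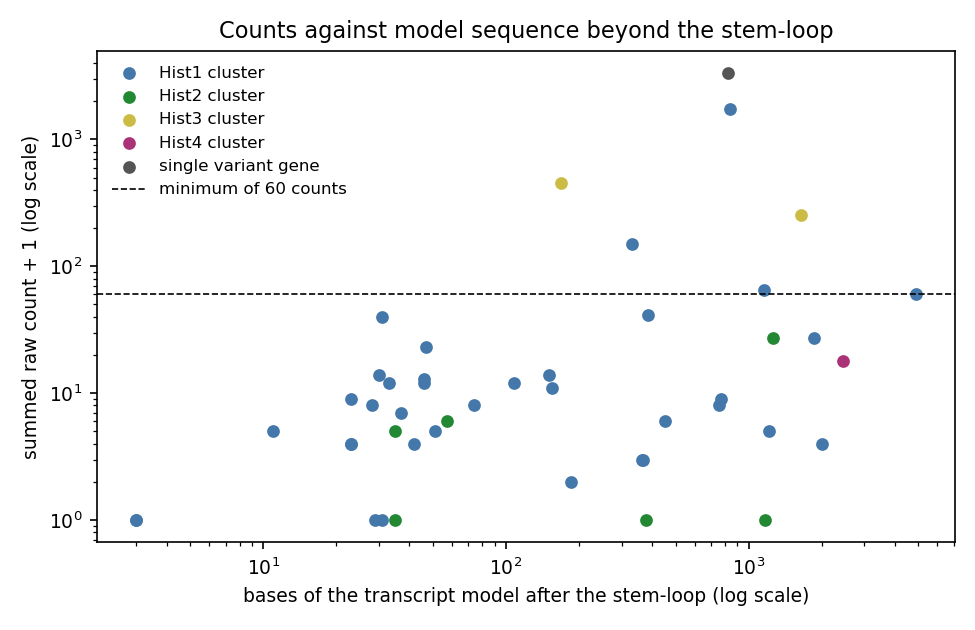
Summed raw count plus 1 against the number of transcript bases after the stem-loop, both on log axes, for the histone genes whose longest coding model holds the loop. All points above the minimum of 60 counts lie at 169 bases or more, and genes with short and long models lie below it.

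The clustered genes also resemble each other in sequence, which limits what counts of uniquely placed reads can show. Windows of 100 bases were compared on either strand with all GENCODE transcripts of other genes. The length was chosen here since the read length is not given in the sources used here. Genes annotated over the same bases were included, so the percentages do not separate copies elsewhere from overlapping annotation. Hist2h2bb, for example, had 100%, and its partners Gm20628 and Gm42743 overlap its own exons. In the 59 genes that were not detected, a median of 42.9% of windows occurred in another gene as well, and in 27 of them at least 50% did. In the 9 detected clustered genes the median was 15.1%, with Hist1h4k highest at 64.3%. Of the variant genes H2afz had 58.8% and H3f3a 26.3% of its windows in another gene, processed pseudogenes included, and the other 6 at most 10.2%. The leading partner of H3f3a, Gm17275, overlaps its exons on the opposite strand. Those of Hist3h2a (29.8%), Trim17 and Gm44313, overlap its exons too. Exons of other genes do not overlap the models of Hist1h4k and H2afz. The values of Hist1h4k and H2afz are therefore uncertain, and a gene without counts here is not shown to be silent. Read pairs with several alignments made up 9.58% to 9.71% of pairs in shCtrl and 9.99% to 10.4% in shFam172a.

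The libraries held 11250312 to 12820531 gene counts in shCtrl and 21690467 to 23409319 in shFam172a, so depth differs between the groups and the 3 deeper libraries are those of the knockdown. Fam172a, the target, was at 18.6, 19.3 and 19.5 CPM in shCtrl and at 9.22, 8.28 and 9.22 CPM in shFam172a, 46.5% of the control level. CPM are counts scaled to a common library size with TMM factors. Neuroblastoma markers were present in both groups, with 11 of 13 above the filter (summed level 1932 to 1975 CPM in shCtrl and 1977 to 2003 CPM in shFam172a); Nefl was near 0. The 6 macrophage markers summed to 0.234 to 0.943 CPM in shCtrl and 1.11 to 1.16 CPM in shFam172a, with Ptprc and Itgam at 0. Fibroblast markers summed to 6.11 to 6.85 CPM and 4.68 to 6.22 CPM, glial markers to 26.9 to 29.1 CPM and 28.2 to 33.4 CPM, and endothelial and epithelial markers to 14.2 to 14.7 CPM and 15.1 to 16.4 CPM. Their part in the results was not tested.

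Among the histone genes that could be measured, those that changed after the Fam172a hairpin were lower. All 17 detected genes passed the filter of the test, edgeR's quasi-likelihood test across 12820 genes with Benjamini-Hochberg adjustment, two-sided, called at an adjusted p under 0.05. Of the 17, 7 fell and 10 were not called; over all genes tested 18.6% were called lower. None was called higher by edgeR, where 17.5% of all genes were; at an unadjusted p under 0.05 there was 1 higher, and DESeq2 called 0. The genes that fell were H1f0, H1fx, Hist1h1c, H2afx, H3f3a, H3f3b and Hist1h2bc, with falls of 11.9% to 28.8% (median 22.3%). The median log2 fold change of the 17 genes, shFam172a over shCtrl, was -0.24, against -0.00030 over all genes tested. Calls depend on depth, so the abundant genes give a closer background: of 9 histone genes with a mean of at least 10 CPM, 6 were called lower, against 23.5% of the 9400 genes tested at that level. These are bulk libraries, in which fewer cells that express a gene and less RNA per cell cannot be told apart.

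**Figure D3:**
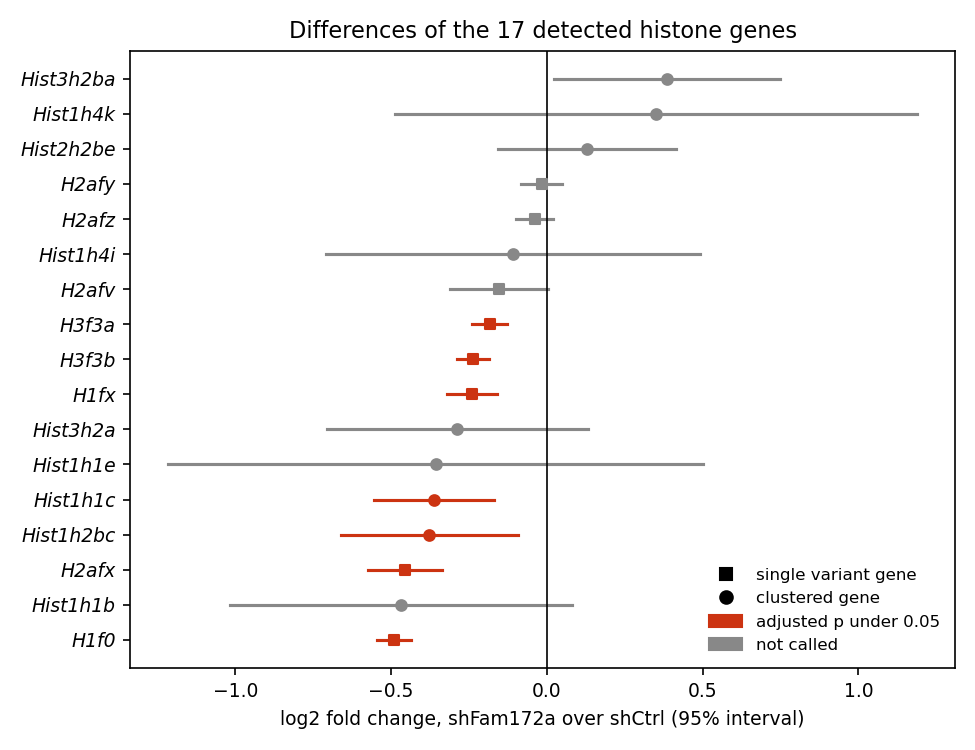
Log2 fold change of the 17 detected histone genes, shFam172a over shCtrl, with 95% intervals from the edgeR fit, squares for variant genes, circles for clustered genes and red for those called. H1f0 lies lowest at -0.49, the 7 red genes all lie below 0, and the intervals widen for the clustered genes with few counts.

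Among the 5 detected linker genes 3 fell, and H1f0 had the largest fall of the called histone genes. H1f0 encodes H1.0, the linker variant that builds up in cells that leave the cycle and differentiate (ENSMUSG00000096210.2, chr15:79028450-79030504 of GRCm38, plus strand, 1 exon). It was at 1550.3, 1604 and 1576 CPM in the shCtrl libraries and at 1169.9, 1116 and 1080.4 CPM in the shFam172a libraries. Every shFam172a library lay below every shCtrl library. The log2 fold change was -0.49 ± 0.027 (SE, edgeR adjusted p = 1.4e-17), a level of 71.2% of control. Exons on the opposite strand overlap H1f0 in GENCODE, and whether the counting used strand is not stated in the sources used here. The same holds for H2afx, H1fx, H2afy, H3f3a and Hist3h2a, and exons of other genes on the same strand overlap H1fx, Hist3h2a (Trim17) and Hist1h1e (Hist1h2be). Counts of these genes are uncertain to that extent.

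H1fx encodes H1x, another linker variant made outside S phase (chr6:87980421-87981637, minus strand, 1 exon). It stood at 169, 159 and 155 CPM in shCtrl and at 136, 145 and 128 CPM in shFam172a. The groups did not overlap, and the log2 fold change was -0.24 ± 0.039 (edgeR adjusted p = 6.2e-06). With offsets for transcript length and GC content the fall was larger, at -0.39. Its transcript has 71.3% G and C, the highest of the detected histone genes.

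Hist1h1c encodes H1.2, a replication-dependent linker histone whose mRNA can also be polyadenylated (chr13:23738808-23740367, plus strand, 1 exon). It had 20.7, 20.3 and 18.2 CPM in shCtrl and 15.4, 17.8 and 12.7 CPM in shFam172a, from 205 to 414 counts per library. All shFam172a libraries were lower, with replicate 2 close to the lowest control (log2 fold change -0.36 ± 0.095, edgeR adjusted p = 0.0026). The other clustered linker genes were barely detected. Hist1h1b (H1.5) was at 1.80, 1.71 and 1.68 CPM against 1.11, 1.501 and 1.12 CPM, and Hist1h1e (H1.4) at 0.429, 0.779 and 0.9745 CPM against 0.324, 0.686 and 0.674 CPM. Their log2 fold changes of -0.47 and -0.36 did not pass (edgeR adjusted p = 0.18 and 0.55), and their 95% intervals reached from -1.02 to 0.080 and from -1.22 to 0.50. The value of Hist1h1e was -0.62 without shCtrl replicate 1 and -0.11 without shCtrl replicate 3. The summed level of the 8 linker genes was 1743 to 1786 CPM in shCtrl and 1224 to 1323 CPM in shFam172a.

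The makeup of the linker transcripts that were counted is given next. Levels of different genes are compared here per kilobase of the longest coding transcript. On that scale H1f0 made up 83.8% ± 0.759 (SD, n = 3) of the counted linker transcripts in shCtrl and 81.5% ± 1.03 in shFam172a. H1fx made up 14.4% ± 0.684 and 16.7% ± 0.809, and Hist1h1c 1.38% ± 0.0898 and 1.46% ± 0.207. These shares are descriptions and were not tested. Only 3 of the 6 clustered linker genes were detected, and the labels do not say how the RNA was selected. The shares are therefore not those of all linker histone in the cells.

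H1f0 and Hist1h1c both fell, and their RefSeq promoter windows differ in sequence. RefSeq promoter windows of GRCm38.p6, from 250 bases before to 50 bases after the start, were matched for 68 of the 76 genes and searched on both strands for AAACACA (the H1 box), CCAAT and TATAAA; matches of TATAAA and AAACACA can share letters. The H1 box occurred in 5 of 8 linker genes (62.5%) and in 7.14% of all 27025 promoters. CCAAT occurred in 52 of 61 clustered genes (85.2%), in 4 of 7 variant genes and in 37.9% of all promoters, and TATAAA in 57.4%, 1 of 7 and 14.2%. The last 150 bases before the start are shown for Hist1h1c, with its H1 box and CCAAT box in capitals, and for H1f0, where none of the 3 motifs was found in the window. The RefSeq start of H1f0 lies upstream of the GENCODE start given above. The H1f0 window ends at position 79028261, before the GENCODE start at 79028450. The bases directly before the GENCODE start were therefore not searched. H1f0 counts as a linker gene without an H1 box on this window alone, and its promoter is not shown to lack one. A match is a description of the letters, not a site.
Hist1h1c (chr13:23738657-23738806, plus strand): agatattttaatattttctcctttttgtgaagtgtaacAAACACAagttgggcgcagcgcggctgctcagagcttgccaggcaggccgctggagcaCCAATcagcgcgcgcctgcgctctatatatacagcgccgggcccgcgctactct
H1f0 (chr15:79028062-79028211, plus strand): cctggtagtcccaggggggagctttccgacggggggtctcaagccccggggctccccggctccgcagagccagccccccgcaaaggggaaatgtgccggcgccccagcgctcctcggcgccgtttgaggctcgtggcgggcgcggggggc

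The genes of H3.3, the H3 variant that is deposited independently of replication, both fell. H3f3b was the histone gene with the most counts (chr11:116021912-116027962, minus strand, 6 exons), at 2211, 2357 and 2252 CPM in shCtrl and 1937, 1905 and 1946 CPM in shFam172a. H3f3a, which encodes the same protein (chr1:180800832-180813943, minus strand, 4 exons), was at 492, 506 and 501 CPM and at 450 (replicate 1), 432 and 439 CPM. For each gene all shFam172a libraries lay below the controls. The log2 fold changes were -0.24 ± 0.025 for H3f3b (edgeR adjusted p = 1.4e-09) and -0.18 ± 0.028 for H3f3a (edgeR adjusted p = 1.4e-06), levels of 84.9% and 88.1% of control. Per kilobase, H3f3b gave 83.7% ± 0.275 of the pair in shCtrl and 83.2% ± 0.212 in shFam172a. The 12 clustered H3 genes together gave at most 1.33 CPM in any library, so the H3 transcripts counted here were almost wholly those of H3.3.

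Of the 4 H2A variant genes H2afx was called lower and the other 3 were not called. H2afx encodes H2A.X, which is phosphorylated around DNA breaks, and carries both a stem-loop and a longer end (chr9:44334694-44336077, plus strand, 1 exon). Its levels were 39.2, 38.6 and 40.1 CPM in shCtrl and 28.6, 28.2 and 29.1 CPM in shFam172a. The groups were far apart and the libraries within each close together. The log2 fold change was -0.46 ± 0.059 (edgeR adjusted p = 6.8e-08), a level of 72.9% of control.

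H2afz, one of the genes of H2A.Z (chr3:137864487-137866922, plus strand, 5 exons), had 455, 467 and 455 CPM against 462, 428 and 450.2 CPM. H2afy, the gene of macroH2A1 (chr13:56073619-56136361, minus strand, 9 exons), had 181, 174 and 185 CPM against 174, 179.7 and 179.6 CPM. In both genes the groups overlapped. The log2 fold changes were -0.04 (95% interval -0.099 to 0.020, edgeR adjusted p = 0.31) for H2afz and -0.02 (-0.084 to 0.049, adjusted p = 0.72) for H2afy. The intervals of these 2 genes lie wholly above that of H2afx, -0.57 to -0.34, and that of H1f0, -0.55 to -0.44, though the differences between genes were not tested.

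H2afv, the other H2A.Z gene (chr11:6427229-6444443, minus strand, 5 exons), was at 25.6, 34.0 and 35.0 CPM in shCtrl and at 29.1, 27.6 and 28.4 CPM in shFam172a. Replicate 1 of shCtrl was below all other libraries while replicates 2 and 3 were above them. The log2 fold change was -0.15 ± 0.077 and did not pass (edgeR adjusted p = 0.12). Its value rests on single control libraries: without shCtrl replicate 1 it was -0.28 (edgeR adjusted p = 0.0013), without replicate 2 -0.092 (adjusted p = 0.49) and without replicate 3 -0.077 (adjusted p = 0.53). Per kilobase H2afz gave 75.6% ± 0.770 of the counted H2A transcripts in shCtrl and 76.6% ± 0.834 in shFam172a, H2afy 15.5% ± 0.587 and 15.9% ± 0.719, and H2afx 4.999% ± 0.124 and 3.79% ± 0.0812. Only 1 of the 18 clustered H2A genes was detected and the value of H2afz is uncertain, so these are not shares of all H2A in the cells.

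**Figure D4:**
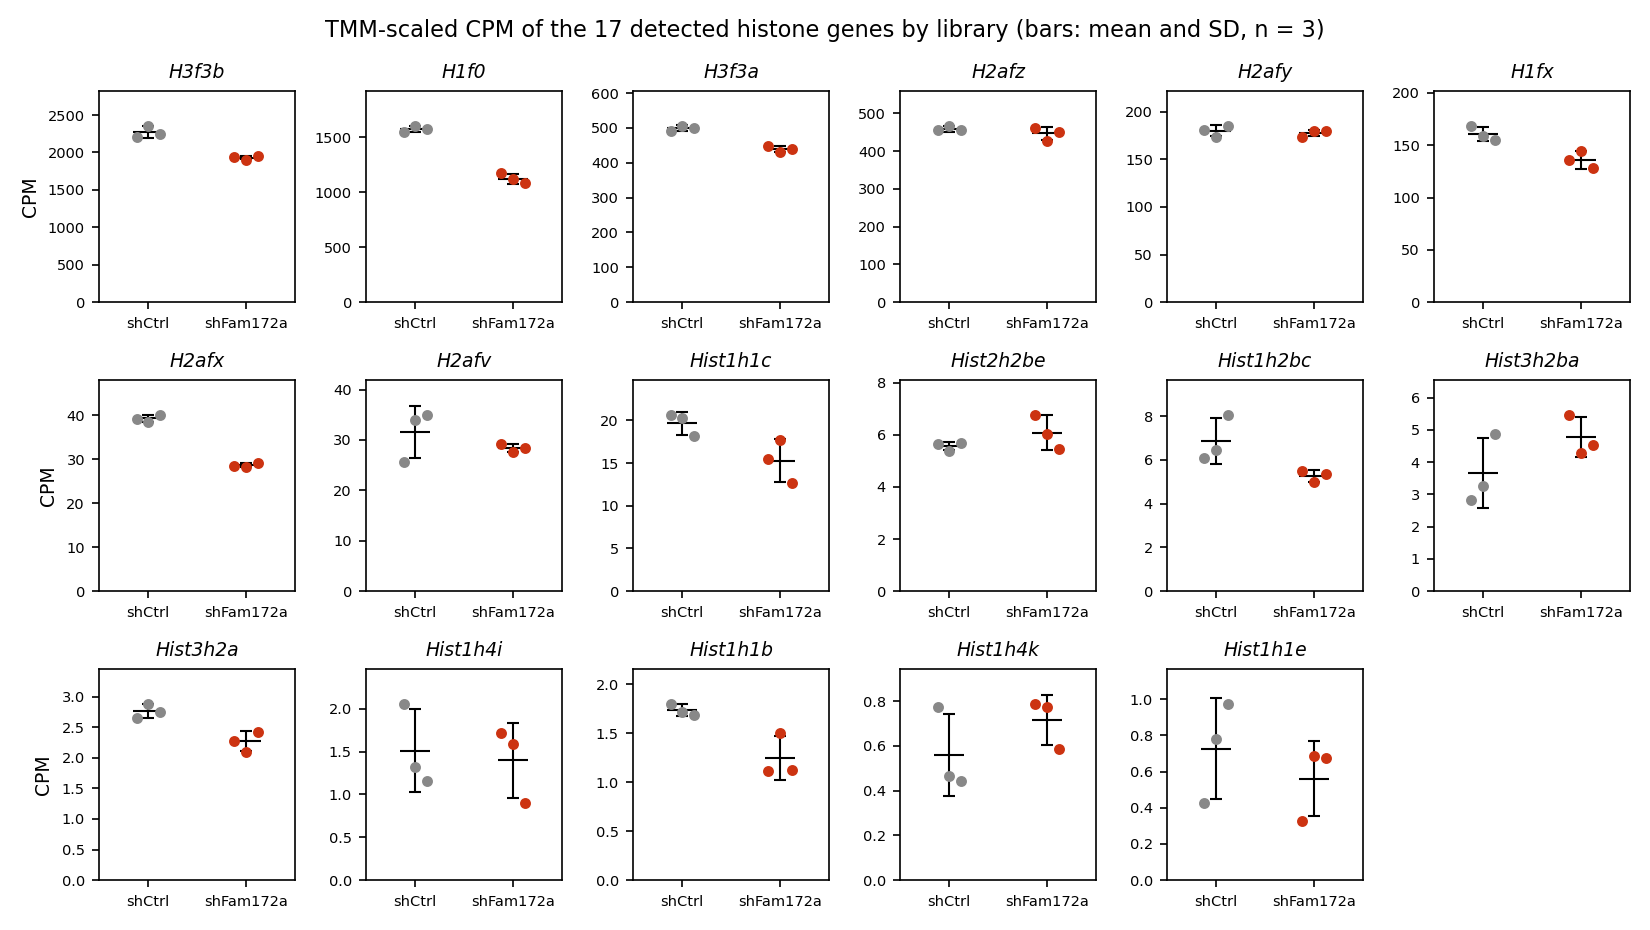
TMM-scaled CPM of each of the 17 detected histone genes in the 3 shCtrl (grey) and 3 shFam172a (red) libraries, with mean and SD bars and each axis starting at 0. H1f0, H2afx and H3f3b show separated groups, H2afz and H2afy overlap, and shCtrl replicate 1 stands apart for H2afv.

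H2B transcripts were low, and of the 3 detected genes Hist1h2bc fell and the other two were not called. There is no H2B variant among the single genes, so this class rests on clustered genes. Hist1h2bc (chr13:23684199-23692908, plus strand, 2 exons) had 6.09, 6.47 and 8.06 CPM in shCtrl and 5.51, 4.98 and 5.35 CPM in shFam172a, with 71 to 119 counts per library. The shFam172a libraries were all lower, and the log2 fold change was -0.38 ± 0.14 (edgeR adjusted p = 0.032). This call was lost under 5 of 15 other settings: DESeq2 (adjusted p = 0.12), counts thinned to equal depth (-0.24, adjusted p = 0.25), offsets for length and GC (adjusted p = 0.063), and without shCtrl replicate 3 (-0.25, adjusted p = 0.25) or shFam172a replicate 2 (adjusted p = 0.094).

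Hist3h2ba (chr11:58948920-58949533, plus strand, 1 exon) pointed the other way, at 2.83, 3.27 and 4.87 CPM in shCtrl and 5.47, 4.29 and 4.54 CPM in shFam172a. Replicate 3 of shCtrl lay among the shFam172a libraries, and the log2 fold change of 0.39 ± 0.18 did not pass (edgeR adjusted p = 0.089). Without that library it was 0.64 (edgeR adjusted p = 0.015), and without shCtrl replicate 1 it was 0.24 (adjusted p = 0.38). Hist2h2be, known as the H2BE variant of mouse olfactory neurons (chr3:96221119-96223738, plus strand, 1 exon), was at 5.66, 5.37 and 5.67 CPM against 6.77, 6.05 and 5.44 CPM, with overlapping groups (0.13 ± 0.14, edgeR adjusted p = 0.51). Its value was 0.049 without shFam172a replicate 1 and 0.20 without shFam172a replicate 3. The summed level of the 19 H2B genes was 17.3 ± 1.96 CPM in shCtrl and 17.6 ± 1.03 CPM in shFam172a (SD, n = 3).

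Single clustered genes of H2A and H4 completed the detected set and none passed the test. Hist3h2a (chr11:58954685-58956830, plus strand) was at 2.66, 2.88 and 2.75 CPM in shCtrl and at 2.27, 2.10 and 2.43 CPM in shFam172a, lower in every library (log2 fold change -0.29 ± 0.21, edgeR adjusted p = 0.29). Hist1h4i (chr13:22040636-22041362, minus strand) had 2.06, 1.32 and 1.15 CPM against 1.71, 1.59 and 0.899 CPM, and Hist1h4k (chr13:21750194-21750505, minus strand) 0.772, 0.467 and 0.443 CPM against 0.788, 0.772 and 0.584 CPM. Their 95% intervals, -0.71 to 0.49 and -0.49 to 1.19, allow changes of either sign. The log2 fold change of Hist1h4k, 0.35, was 0.64, 0.23 and 0.22 without shCtrl replicate 1, 2 and 3 in turn, and 0.21 with offsets for length and GC. In all, the groups did not overlap, with shFam172a lower, for 9 of the 17 detected genes: the 7 called, Hist1h1b and Hist3h2a. Over all genes tested 23.5% had that pattern. The 68 clustered genes summed to 49.1 ± 0.885 CPM in shCtrl and 43.4 ± 2.95 CPM in shFam172a, and the 59 not detected to 6.02 ± 0.376 and 5.76 ± 0.788 CPM.

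Transcripts of the machinery that makes histone mRNA were called in both directions. Among 21 genes for histone gene transcription and 3′ end processing there were 7 lower, 3 higher and 11 not called. Over all genes tested 18.6% were lower and 17.5% higher (23.5% lower at a mean of at least 10 CPM), so the split of this list is not read as a result. Its median log2 fold change was -0.05. The 3 with the smallest p were Srrt, a partner of the nuclear cap-binding complex (151 ± 4.04 to 187 ± 1.16 CPM, log2 fold change 0.31 ± 0.033), Cdk2, the S-phase kinase that acts with cyclin E on NPAT (-0.26 ± 0.039), and the cap-binding subunit Ncbp2 (-0.35 ± 0.065). Slbp, the stem-loop binding protein, chosen after its values were seen, went from 87.7 ± 5.69 to 77.7 ± 4.10 CPM (-0.18 ± 0.046, edgeR adjusted p = 0.0028), with the groups overlapping. Npat, the coactivator of histone genes, was likewise picked with its values known and was at 80.7 ± 3.87 and 82.3 ± 2.74 CPM (edgeR adjusted p = 0.62). Without shCtrl replicate 2 the number that fell was 4.

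Histone chaperones carry new histones to DNA. Of the 27 listed, 13 were lower, 4 were higher and 10 were not called, and the median log2 fold change was -0.10. The shares over all genes tested were 18.6% lower and 17.5% higher, and 28.4% lower among those of at least 100 CPM. Chaf1b, a subunit of the replication-coupled chaperone CAF-1, was at -0.38 ± 0.041, Hat1, which acetylates newly made H4, at -0.31 ± 0.036, and Anp32e, which removes H2A.Z, at -0.22 ± 0.028, all with edgeR adjusted p of 4.0e-08 or less. The 4 that rose, named after their values were seen, were Atrx, Ubn2, Nap1l4 and Ubn1, at 0.24, 0.23, 0.11 and 0.11.

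Replication-dependent histone genes are transcribed in S phase, and genes of that phase were listed for comparison. Of 30 listed genes 19 were lower, 0 higher and 11 not called, and the median log2 fold change was -0.20. Over all genes tested 18.6% were lower and 17.5% higher, and 28.4% were lower among those of at least 100 CPM. At an unadjusted edgeR p under 0.05 there were 24 lower and 0 higher, and DESeq2 called 19 lower and 0 higher. Rrm2, a subunit of ribonucleotide reductase, and Prim1, a subunit of DNA primase, had the smallest p, at -0.67 ± 0.039 and -0.54 ± 0.040. The summed level was 4355 to 4526 CPM in shCtrl and 3802 to 3917 CPM in shFam172a. Its part in the histone result was not tested. Of the histone variants outside the gene set, Cenpa, the H3 variant of centromeres, fell (71.0 ± 0.550 to 64.3 ± 0.957 CPM, -0.14 ± 0.044, edgeR adjusted p = 0.0085), and H2afj did not pass (20.8 ± 2.14 and 22.9 ± 1.55 CPM, adjusted p = 0.16).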

How the data were processed

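The authors deposited raw counts per gene symbol, 1 column per library; the submitters' processing notes list HISAT2 2.0.5, HTSeq and build mm10. Neither the annotation nor the strand setting is stated in the sources used here. The single-library tables hold the same counts. The 5 rows that name no gene (pairs in no gene 16.4% to 17.9% of all, the other rows 0.722% to 10.4%) were left out. After filterByExpr, TMM scaling and a test with edgeR 4.0.16 followed in R 4.3.3 (glmQLFit, robust; glmQLFTest), with group as the sole term; DESeq2 1.42.0 was an alternative. The SE of a log2 fold change is its size over the square root of F. Replicates differed beyond sampling noise (chi-square per degree of freedom at least 1.61) and were kept as separate samples. On simulated counts over 12820 genes of this comparison the test recovered 24, 45, 47 and 50 of 50 genes at 1.25-, 1.5-, 2- and 4-fold, and called 9 of 12620 unchanged genes. Members and lists were chosen with earlier results of these data known. Genes given in full were, by rule, the 8 variant genes, the 10 clustered genes of highest mean CPM (9 were detected) and those called; for other lists the 3 of smallest p, of which 1 S-phase gene is not reported here. Same-numbered libraries of the groups were not paired in the labels.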

Additional observations from a re-analysis of the deposited data

How the results depend on the processing

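Under 15 other settings (RLE or upper-quartile scaling, no filter or a minimum of 60 summed counts, DESeq2, no robust estimation, a replicate block, thinning to 11250312 counts, offsets for transcript length and GC, and leaving out each library) the number of histone genes called lower was 6 to 8, and H1f0, H1fx, Hist1h1c, H2afx, H3f3a and H3f3b were called lower in all 15. Leaving out 1 library gave 0 to 1 histone genes called higher and 6 to 8 called lower, the 1 higher being Hist3h2ba without shCtrl replicate 3; it gave 4 to 8 lower genes in the list for histone gene transcription and 3′ end processing. The sign turned for Hist1h4i without shCtrl replicate 1 (0.17) or shFam172a replicate 3 (0.13), over a range of -0.27 to 0.17, and for H2afy without shCtrl replicate 3 (0.0054) or shFam172a replicate 1 (0.00045), over a range of -0.042 to 0.0054. Neither gene was called in any setting. With 30 or 120 summed counts as the minimum, 21 and 15 genes were detected, and at equal depth, with a minimum of 30 counts over the 3 libraries of a group, 15 in each group alone. With the replicate block 7 histone genes were lower and 0 higher. Same-numbered libraries did not deviate together (correlations -0.0096 to -0.0038), which cannot show whether they shared an infection or a day. The detected genes under a mean of 2 CPM (Hist1h4i, Hist1h1b, Hist1h4k and Hist1h1e) rest on 5 to 37 counts per library, and Hist1h1e and Hist1h4k had values in 10 settings only.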
